A study of Homo sapiens with 10 samples.

Results

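The genes described here are 89 of the 23284 genes in an expression table of K562 cells, and they were lowered by 5 µM CBP30 while the other treatments left them, on the mean of each group, near the vehicle level. They were chosen by measured values. With expression written as log2(FPKM + 1), where FPKM is the fragments per kilobase of transcript scaled to the reads of the library, a gene was taken if its DMSO mean was at least 2 FPKM, if the mean with 5 µM CBP30 lay at least 0.8 below DMSO with both samples under both DMSO samples, and if the means with 2 µM CBP30, 2 µM I-CBP112 and 5 µM I-CBP112 each lay within 0.3 of DMSO. Genes of histones, small RNAs, ribosomal proteins and complex I subunits were left out by the start of their symbol. Of the 10151 genes that met the DMSO level, 539 (5.31%) had the fall with 5 µM CBP30, and 429 of these were also more than 0.3 lower with 2 µM CBP30.

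K562 is an established human cell line from a chronic myeloid leukemia. Cells of the line were kept for 48 h in vehicle (DMSO) or in 1 of 2 bromodomain inhibitors, CBP30 and I-CBP112, each given at 2 µM and at 5 µM, with 2 biological replicates for each of the 5 conditions, and polyadenylated RNA was sequenced from stranded libraries. Both compounds block the bromodomain shared by CREBBP and EP300, and they differ in chemistry. The comparison of the doses and compounds addresses which genes respond to the higher dose of CBP30 alone. As bulk samples they cannot tell fewer expressing cells apart from less RNA per cell.

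CREBBP and EP300 are paralogous acetyltransferases that acetylate histones at enhancers and promoters, and their bromodomain binds acetylated lysine. ATF4 is the transcription factor of the integrated stress response and turns on genes of amino acid supply. Small nucleolar RNAs (snoRNAs), which guide the modification and cleavage of ribosomal RNA, are cut from introns of host transcripts whose spliced RNA often encodes no protein. Ribosomal RNA is then matured by exonucleases, pseudouridine synthases and assembly factors, while nuclear-encoded mitochondrial proteins are imported by the TOM and TIM complexes.

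In all 10 libraries the summed expression was between 547504 FPKM (replicate 1 of 5 µM CBP30) and 689095 FPKM (replicate 1 of 2 µM CBP30). Replicate 1 of 2 µM CBP30 stood apart. With genes divided by transcript length into 5 classes of equal size, the shortest class had a median log2 difference from DMSO of 0.29 in that library and the longest class −0.34, against −0.004 and −0.04 in replicate 2. All 14 markers of K562 and the erythroid lineage reached 2 FPKM with DMSO, and their sum was lower in every treatment, with a mean of 2248 FPKM with DMSO, 1042 and 771 FPKM with 2 and 5 µM CBP30, and 1450 and 1389 FPKM with 2 and 5 µM I-CBP112. The part of these differences in the results below was not tested. The 12 markers of other cell types summed to between 106 and 136 FPKM, of which EPCAM, LYZ and CD3D reached 2 FPKM and MS4A1 was listed at 0 in every library.

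Over the 89 genes, the median log2 difference from DMSO was −0.88 with 5 µM CBP30, with quartiles of −0.99 and −0.84 and a range from −2.18 to −0.80. Of the DMSO mean, between 15.8% and 57.1% was left, with a median of 51.1%. These values are what the genes were chosen for, and limma called all 89 lower at an adjusted p under 0.05, as it did 25.4% of the 12788 genes tested, and 0 higher (21.2% of all). The DMSO level itself ran from 2.11 to 728 FPKM with a median of 35.5 FPKM. It was at least 100 FPKM in 23 genes and under 10 FPKM in 18 genes, for which the added 1 FPKM makes the log2 difference smaller than the change in FPKM. In every one of the 89 genes both 5 µM CBP30 samples lay below the lowest of the other 8 samples, which the rule made likely.

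**Figure D1:**
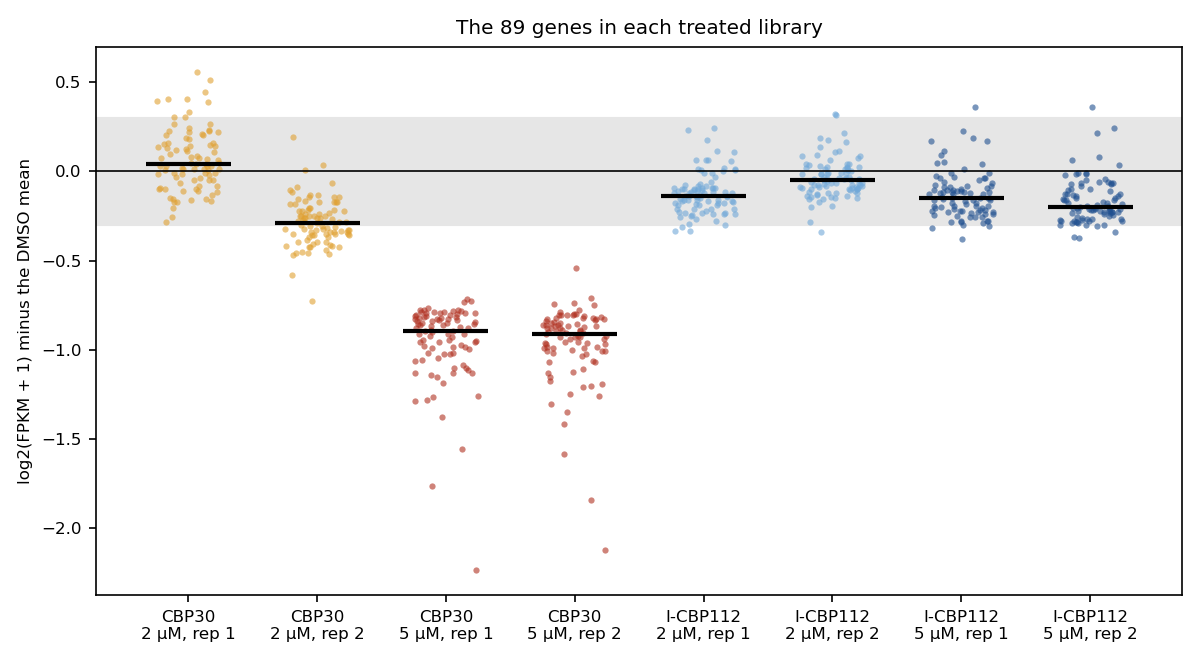
Difference of log2(FPKM + 1) from the DMSO mean (vertical axis) for the 89 genes (points) in each of the 8 treated libraries (horizontal axis, rep is replicate), with the median as a black bar and the range of ±0.3 shaded. Both 5 µM CBP30 libraries sit near a median of −0.9, and the 2 µM CBP30 libraries sit apart from each other at 0.04 and −0.29.

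At 2 µM CBP30 the mean of these genes combined 2 unlike libraries. In replicate 1 the median difference from DMSO was 0.04. There 10 of the 89 genes lay more than 0.3 above DMSO, against 2187 of the 10151 genes with the DMSO level. More than 0.3 below DMSO lay 0 of the 89, against 24.1% of genes with the DMSO level. In replicate 2 the median was −0.29, and 44 of the 89 genes lay more than 0.3 below DMSO, against 14.9% of the genes with the DMSO level. Replicate 2 lay below both DMSO samples in 86 of the 89 genes, against 47.4% of those genes, whereas replicate 1 did so in 22 (47.3% of those genes). Replicate 1 was above replicate 2 in 87 of the 89 genes, against 51.5% of genes with the DMSO level, and 22 lay below both DMSO samples in both replicates (33.9% of those genes). Within 0.3 of DMSO in both replicates lay 37 of the 89. Taken singly, 79 of the 89 lay within 0.3 in replicate 1 and 45 in replicate 2. Of the 10151 genes with the DMSO level, 5514 and 7538 did so. The rule used the mean of both libraries, so these counts describe the genes and test nothing. Without replicate 1 of 2 µM CBP30 the rule gave 47 genes, 45 of them among the 89, and without replicate 2 it gave 116, of which 79 were among the 89.

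With I-CBP112 the same genes lay slightly below DMSO. Their median difference was −0.10 at 2 µM and −0.17 at 5 µM, where the genes with the DMSO level had −0.01 and −0.02. Both samples lay under both DMSO samples in 46 of the 89 genes at 2 µM (32% of genes with the DMSO level) and in 70 of the 89 at 5 µM (38%). By limma 0 of the 89 were called at either dose, where 0.735% of all genes tested were called lower and 0.868% higher at 2 µM, and 3.28% lower and 3.84% higher at 5 µM. At an unadjusted p under 0.05, 10 of the 89 (11.2%) were lower at 5 µM, nearly the share of all genes tested (11.1%), and 0 were higher (10.9% of all). At 2 µM 0 were lower (6.77% of all) and 1 was higher (7% of all). The fit used the same estimate of spread per gene for all 5 groups. The gap between the libraries of 2 µM CBP30 thus entered the standard errors for I-CBP112 too, and the call counts are read with that limit. The rule had also kept the means of both I-CBP112 doses and of 2 µM CBP30 near DMSO. Few calls against DMSO were therefore made likely by the choice of genes. Such counts, adjusted or not, do not test whether these treatments left the genes unchanged. At 2 µM CBP30 limma called 6 of the 89 lower, with 16.3% of all genes called lower, namely CLN6, NOB1, PYCR1, RPUSD4, SNHG1 and SNHG3, and it called SORBS3 higher (15.9% of all genes).

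Set side by side at 5 µM, the median difference between CBP30 and I-CBP112 over the 89 genes was −0.77. Of these genes, 86 were called lower with CBP30 (17.9% of all genes tested). The paper describes I-CBP112 as the less potent inhibitor, so an equal concentration need not be an equal inhibition. Against DMSO, limma called 25.4% of all genes tested lower for CBP30 at this concentration, and 3.28% for I-CBP112. The part of potency in the gap was not tested. Between 5 and 2 µM CBP30 the median was −0.82, and 88 were called lower (21.3% of all genes tested). Between the doses of I-CBP112 the median was −0.08 and 0 were called (0.00782% of all genes lower and 0.0547% higher), with 1 lower at an unadjusted p under 0.05 (1.12%, against 2.71% of all genes tested) and 0 higher (3.35% of all). The choice of genes fixes the direction of the comparisons with 5 µM CBP30, which share those samples. It also held both doses of I-CBP112 near DMSO, which limits the difference between them.

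Genes are grouped below by a single assigned role each. The sizes of these role groups were not compared with all genes, so they show no enrichment. The genes of amino acid supply and of the stress response that governs it held several of the largest falls. ATF5, a basic leucine zipper factor of the same family as ATF4, stood at 64.4 and 67.6 FPKM with DMSO, 62.2 and 56.0 at 2 µM CBP30, 18.8 and 17.7 at 5 µM CBP30, 65.7 and 74.6 at 2 µM I-CBP112, and 59.3 and 58.3 at 5 µM I-CBP112. Its 5 µM CBP30 samples held 27.6% of the DMSO mean, a log2 difference of −1.80, while both 2 µM CBP30 and both 5 µM I-CBP112 samples lay only a little under DMSO. TRIB3, a pseudokinase that is induced by ATF4 and holds it back, had 196 and 192 FPKM with DMSO, 181 and 141 at 2 µM CBP30, 65.3 and 63.9 at 5 µM CBP30, 178 and 188 at 2 µM I-CBP112, and 183 and 171 at 5 µM I-CBP112. All 8 treated samples of TRIB3 lay under both DMSO samples, and 33.3% of the DMSO mean was left with 5 µM CBP30 (−1.57).

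ASNS, which makes asparagine from aspartate, was among the most highly expressed of the 89. It had 459 and 462 FPKM with DMSO, 512 and 472 at 2 µM CBP30, 242 and 228 at 5 µM CBP30, 442 and 485 at 2 µM I-CBP112, and 476 and 458 at 5 µM I-CBP112. Both 2 µM CBP30 samples of ASNS were thus above DMSO and both 5 µM samples far below it, at 51.1% of the DMSO mean (−0.97). CHAC1, an enzyme that breaks down glutathione, had 41.6 and 39.1 FPKM with DMSO, 44.4 and 34.1 at 2 µM CBP30, 23.2 and 21.6 at 5 µM CBP30, 37.6 and 38.5 at 2 µM I-CBP112, and 36.8 and 35.0 at 5 µM I-CBP112. Its 2 µM CBP30 samples straddled DMSO, and its 4 I-CBP112 samples lay just below.

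The other 6 genes of this group are enzymes and a translation regulator. ACY1, which frees amino acids from their N-acetylated form, fell to 40.6% of DMSO, PYCR1, the last enzyme of proline synthesis, to 45.5%, and EIF4EBP1, whose product binds the cap-binding protein eIF4E and restrains translation, to 46.4%. GCAT, an enzyme of threonine breakdown, was left at 49.3%, PCK2, the mitochondrial form of phosphoenolpyruvate carboxykinase, at 53.1%, and CBS, which joins homocysteine and serine, at 55.3%. Over the 10 genes the median difference was −1.04 with 5 µM CBP30, −0.15 with 2 µM CBP30, −0.08 with 2 µM I-CBP112 and −0.16 with 5 µM I-CBP112.

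**Figure D2:**
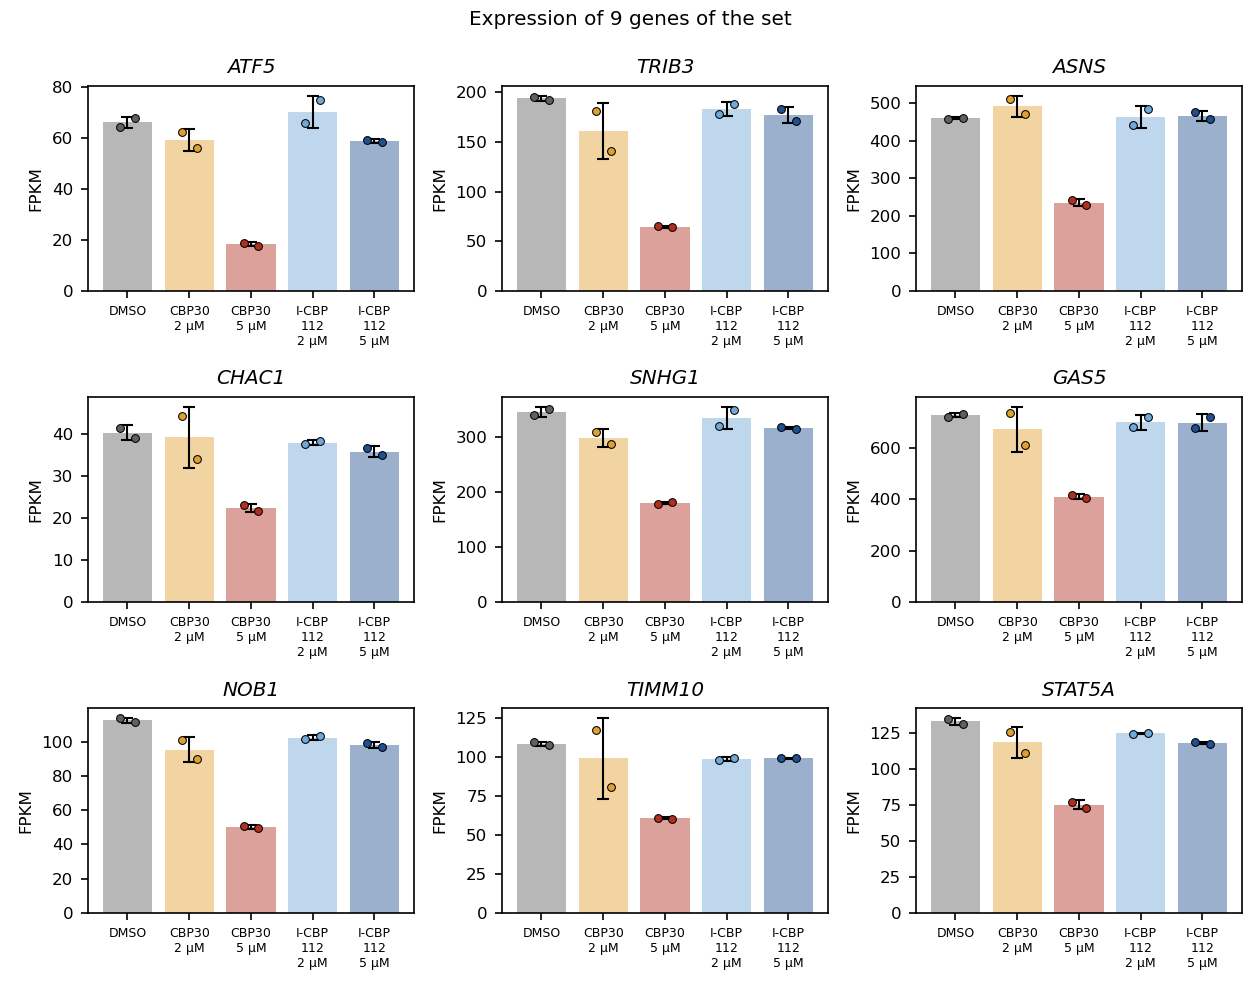
Expression in FPKM (vertical axes, each from 0) of 9 of the 89 genes in the 5 conditions (horizontal axes), with both samples as points, the mean as a bar and the standard deviation as an error bar (n = 2). In each panel both 5 µM CBP30 samples lie under the other 8 samples, for ATF5 at 18.8 and 17.7 FPKM, which the choice of genes made likely.

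A list of ATF4 and 13 genes of its response was examined, 3 of which (TRIB3, ASNS and CHAC1) belong to the 89 and were thus chosen for their fall. Of the other 11 genes, 7 were called lower and 1 higher with 5 µM CBP30, where 25.4% of all genes tested were called lower and 21.2% higher, and their median difference was −0.51 where that of all genes tested was −0.01. ATF4 itself had 511 and 524 FPKM with DMSO and 364 and 360.3 at 5 µM CBP30, a difference of −0.51 ± 0.11 (standard error, limma, adjusted p = 0.0074). DDIT4, an inhibitor of mTORC1 signalling, differed by −1.10, and PHGDH, the first enzyme of serine synthesis, by −0.69, and both were called. ATF3, another stress-induced factor of the family, was the one called higher, at 0.35. At 2 µM CBP30 the median of the 11 was 0.10, with 3 genes called lower (DDIT4, SLC7A11 and VLDLR) and PHGDH called higher, where 16.3% of all genes were called lower and 15.9% higher. For the whole list of 14, neither dose of I-CBP112 gave a call by limma, and at an unadjusted p under 0.05 only 1 gene was past the threshold, higher with 5 µM.

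**Figure D3:**
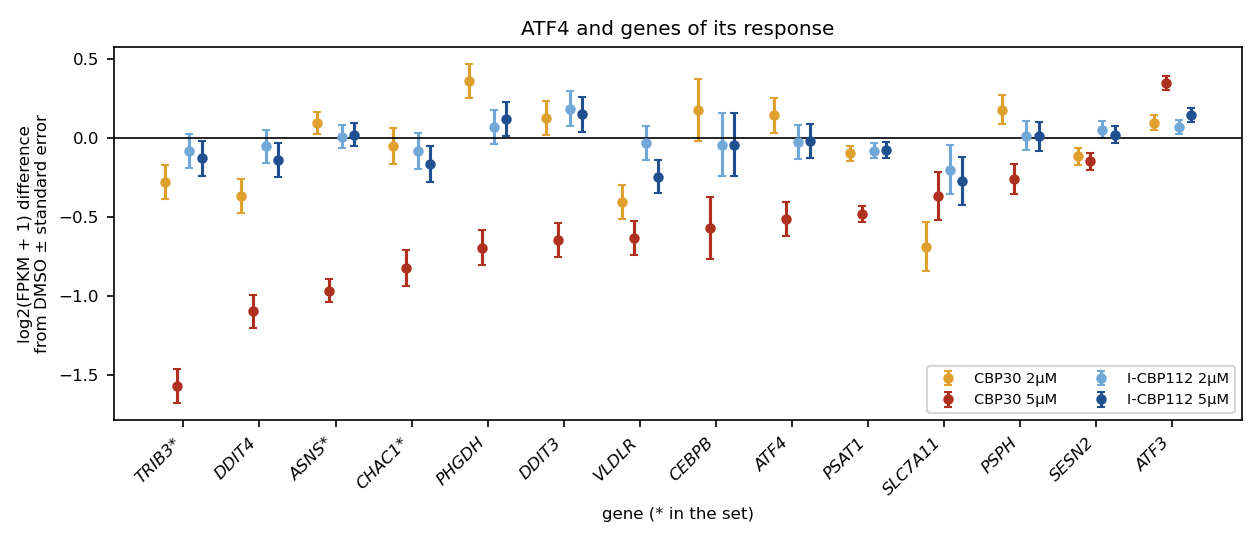
Difference of log2(FPKM + 1) from DMSO with its standard error from limma (vertical axis) for ATF4 and 13 genes of its response (horizontal axis) in the 4 treatments (colours), with the genes of the set marked by an asterisk. With 5 µM CBP30 the values run from −1.57 for TRIB3 to 0.35 for ATF3.

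To show what the promoters of these genes hold, windows from 250 bases before to 50 after the gene start were read from RefSeq (GRCh38.p14), which gave a window for 70 of the 89 genes. The letters TGATGNAA, the core of the composite element that ATF4 and C/EBP proteins bind, were searched on both strands. They occurred in 3 of the 70 windows (4.29%), those of ASNS, CHAC1 and RSL24D1, against 1.47% of the windows of genes with the DMSO level and 3.67% of all 27305. The windows of TRIB3 and ATF5 did not hold these letters. The matches are shown 5′ to 3′ on the strand of the gene with the motif, or its reverse complement, in capitals.
ASNS: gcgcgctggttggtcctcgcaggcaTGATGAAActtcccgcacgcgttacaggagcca
CHAC1: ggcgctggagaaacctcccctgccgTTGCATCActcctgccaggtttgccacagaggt
RSL24D1: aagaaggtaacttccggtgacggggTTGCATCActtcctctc
The first lies on the minus strand at chr7:97872444-97872501 and its motif starts 68 bases before the ASNS start. The second lies on the plus strand at chr15:40953237-40953294, with the motif starting 209 bases before the CHAC1 start, and the third on the minus strand at chr15:55196932-55196973, with the motif starting 7 bases before the RSL24D1 start.

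Transcripts that host snoRNAs formed the next group. Of the 89 genes, 10 (11.2%) hold at least 1 snoRNA gene within their span in RefSeq, against 3.42% of the genes with the DMSO level. SNHG1, with 9 small RNA genes inside, had 339 and 351 FPKM with DMSO, 309 and 287 at 2 µM CBP30, 178 and 181 at 5 µM CBP30, 319.6 and 349 at 2 µM I-CBP112, and 318 and 314 at 5 µM I-CBP112. The 2 µM CBP30 samples and the 5 µM I-CBP112 samples of SNHG1 were below DMSO, and the 5 µM CBP30 samples were at 52.0% of it (−0.94). GAS5, with 11 snoRNA genes inside, was the most highly expressed of the 89, with 723 and 734 FPKM with DMSO, 736 and 611 at 2 µM CBP30, 417 and 405 at 5 µM CBP30, 680.4 and 721 at 2 µM I-CBP112, and 677 and 722 at 5 µM I-CBP112. Its 2 µM CBP30 samples lay on either side of DMSO and its 5 µM samples at 56.4% (−0.82).

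EPB41L4A-AS1, an RNA that hosts SNORA13, had the largest fall of the group. It went from 44.004 and 42.5 FPKM with DMSO to 17.2 and 16.4 at 5 µM CBP30 (38.8%, −1.32), with 47.1 and 34.3 at 2 µM CBP30, 36.7 and 42.0 at 2 µM I-CBP112 and 36.98 and 38.9 at 5 µM I-CBP112. The 4 I-CBP112 samples of EPB41L4A-AS1 lay under both DMSO samples. Of the rest, SNHG3, which hosts SNORA73A and SNORA73B, was left at 48.9% and SNHG15 at 49.9%, while SNHG7, SNHG8 and LOC388796 (SNHG17) were left at between 53.8% and 55.9%. The protein-coding genes CCNB1IP1 (52.5%) and GLTSCR2 (54.8%) hold snoRNA genes too.

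The 19 host genes tested, named SNHG or GAS5, were gathered after their values were seen. Of these, 7 are among the 89 genes and were chosen for their fall. Of the other 12, 9 lay below DMSO with 5 µM CBP30, where 53.9% of genes with the DMSO level did, with a median of −0.43, and their median with 2 µM CBP30 was 0.09. SNHG4 differed from DMSO by −1.21 with 5 µM CBP30 but also by −0.79 with 2 µM and so was not taken, and SNHG12 lay above DMSO at both doses, by 0.23 at 5 µM and 0.38 at 2 µM. The fall was therefore not shared by every host transcript.

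The group that processes ribosomal and transfer RNA held 10 genes, with a median of −0.88 at 5 µM CBP30. NOB1, the endonuclease that trims the end of 18S ribosomal RNA, had 114 and 111.7 FPKM with DMSO, 100.9 and 90.2 at 2 µM CBP30, 51.1 and 49.3 at 5 µM CBP30, 102 and 103 at 2 µM I-CBP112, and 99.3 and 97.2 at 5 µM I-CBP112. All 8 treated samples of NOB1 lay under DMSO, and those of 5 µM CBP30 held 44.5% of it (−1.15). EXOSC5, a core subunit of the RNA exosome, had 43.9 and 43.0 FPKM with DMSO, 51.0 and 35.6 at 2 µM CBP30, 20.5 and 20.2 at 5 µM CBP30, 37.1 and 41.5 at 2 µM I-CBP112, and 37.7 and 35.7 at 5 µM I-CBP112. Its fall of 1.06 on the log2 scale at 5 µM CBP30 contrasted with 2 µM CBP30 samples on either side of DMSO.

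The remaining members of this group span several steps of the pathway. The pseudouridine synthases RPUSD4 and PUS1 were left at 47.1% and 48.7% of DMSO. POLR1D, a subunit shared by RNA polymerases I and III, was left at 53.6%, and RRP9 and TBL3, which act in the early processing of the small subunit precursor, at 53.7% and 55.0%. GLTSCR2 (NOP53) and RSL24D1, factors of large subunit assembly, were left at 54.8% and 56.0%, and RPP21, a protein of ribonuclease P, at 56.8%.

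The letters CACGTG, an E-box, which reads the same on both strands, occurred in 13 of the 70 promoter windows (18.6%), against 11.02% of the windows of genes with the DMSO level and 7.43% of all windows. Those of EXOSC5 and RRP9 are given as examples from the ribosome group, with the E-box in capitals.
EXOSC5: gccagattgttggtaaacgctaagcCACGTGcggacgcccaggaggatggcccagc
RRP9: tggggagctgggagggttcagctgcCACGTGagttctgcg
Both lie on the minus strand, at chr19:41397418-41397473 and chr3:51941895-51941934, with the E-box starting 89 bases before the EXOSC5 start and 5 bases before the RRP9 start. The letters AGATAA, which GATA factors bind, were in 5 of the 70 windows (7.14%) on either strand, against 4.58% and 10.5%. The windows of the 89 genes held a median of 25 CpG dinucleotides and those of genes with the DMSO level 27.

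**Figure D4:**
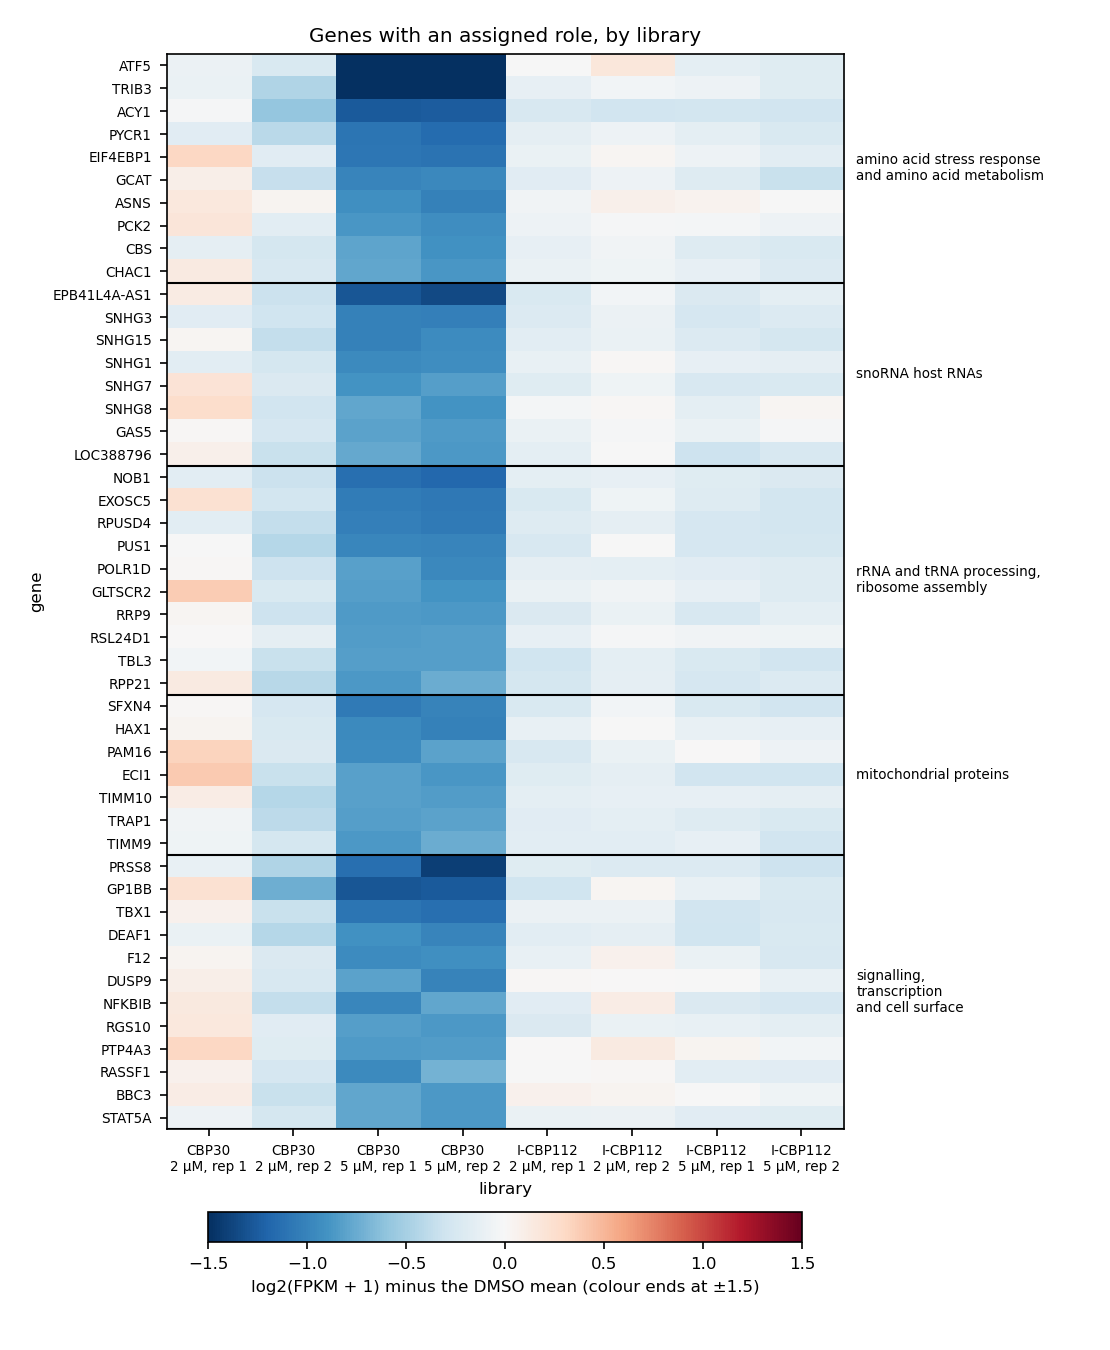
Difference of log2(FPKM + 1) from the DMSO mean (colour, ending at ±1.5) in the 8 treated libraries (columns) for the 47 genes with an assigned role (rows, grouped by role). The 5 µM CBP30 columns are blue in every row, and at 2 µM CBP30 replicate 2 is bluer than replicate 1 in most rows.

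The role of mitochondrial protein was given to 7 of the 89 genes, with a median of −0.84 at 5 µM CBP30. This is not a full count of mitochondrial proteins. Genes under other roles, such as PCK2, also encode them, and the rule had left out complex I subunits by symbol. TIMM10, a small chaperone that guides proteins across the intermembrane space together with TIMM9, had 109 and 107 FPKM with DMSO, 117 and 80.6 at 2 µM CBP30, 61.1 and 60.3 at 5 µM CBP30, 97.8 and 99.4 at 2 µM I-CBP112, and 99.4 and 98.9 at 5 µM I-CBP112. The 2 µM CBP30 samples of TIMM10 lay on either side of DMSO, its 4 I-CBP112 samples lay a little below, and its 5 µM CBP30 samples held 56.0% of DMSO (−0.83). TIMM9 (56.7% of DMSO) and PAM16 (53.7%), a part of the import motor, accompanied it, as did TRAP1 (56.6%), the mitochondrial member of the HSP90 family. SFXN4, a sideroflexin of the inner membrane, was left at 47.7%, HAX1, a mitochondrial survival factor, at 50.2%, and ECI1, an isomerase of fatty acid oxidation, at 54.8%. A list of 20 genes of mitochondrial import holds TIMM9, TIMM10 and PAM16. Of its other 17 genes, limma called 12 lower and 0 higher with 5 µM CBP30 (median −0.45, and 0 higher also at an unadjusted p under 0.05), where 25.4% of all genes tested were called lower. With 2 µM CBP30 it called 3 of the 17 lower, near the 16.3% of all genes. With I-CBP112, over the whole list, 0 were called at 2 µM (1 lower at an unadjusted p under 0.05) and 1 was called lower at 5 µM (3.28% of all genes).

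Genes of signalling, transcription and the cell surface numbered 12, with a median of −0.89. GP1BB, the beta chain of the platelet receptor glycoprotein Ib, had 116 and 108 FPKM with DMSO, 131 and 67.0 at 2 µM CBP30, 45.1 and 46.1 at 5 µM CBP30, 90.5 and 114 at 2 µM I-CBP112, and 103 and 95.0 at 5 µM I-CBP112. Its 2 µM CBP30 samples lay above and below all its DMSO and I-CBP112 samples, and 40.8% was left at 5 µM CBP30 (−1.27). STAT5A, a transcription factor activated by cytokine receptors and by BCR-ABL, had 135 and 131 FPKM with DMSO, 126 and 111 at 2 µM CBP30, 77.3 and 72.8 at 5 µM CBP30, 124 and 125 at 2 µM I-CBP112, and 118 and 117 at 5 µM I-CBP112. All 8 treated samples of STAT5A lay under DMSO, those of 5 µM CBP30 at 56.4% (−0.82). It shares sequence with its neighbour STAT5B, and reads of the pair could be split between them.

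Others of this group were expressed at lower levels. PRSS8, a serine protease of the cell surface, was left at 32.0% of DMSO and TBX1, a T-box transcription factor, at 45.3%. The transcription factor DEAF1 was left at 49.0%, DUSP9, a phosphatase of MAP kinases, at 36.3%, and F12, coagulation factor XII, at 29.5% of a DMSO mean of 2.11 FPKM. NFKBIB, an inhibitor of NF-kB, RGS10, which speeds G protein inactivation, the phosphatase PTP4A3 and the tumour suppressor RASSF1 were left at between 51.7% and 55.1%. BBC3 (PUMA), a pro-apoptotic target of p53, was left at 54.8%. Of the other 9 p53 targets tested on a list, 2 were called lower (25.4% of all genes) and 4 higher (21.2%) with 5 µM CBP30, with a median of 0.01, and the CDK inhibitor CDKN1A was higher by 1.51.

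Of the 42 genes with another or no assigned role, LOC731779 (LINC01300), a long noncoding RNA, had the largest fall of the whole set. It stood at 11.96 and 12.6 FPKM with DMSO, 14.5 and 12.3 at 2 µM CBP30, 1.82 and 2.05 at 5 µM CBP30, 12.9 and 15.5 at 2 µM I-CBP112, and 11.5 and 12.9 at 5 µM I-CBP112. Only the 5 µM CBP30 samples left the range of 11.5 to 15.5 FPKM, and they held 15.8% of DMSO (−2.18). DBNDD2 was left at 37.1%, the lens crystallin gene CRYBA4 at 29.3% and EEF1A2, a tissue-specific form of translation elongation factor 1A, at 29.5%. DPP7, a lysosomal peptidase, was left at 44.1% and BEX2 at 45.7%. LRFN4, an adhesion protein of synapses, was left at 36.1%, and ALKBH2, a DNA repair dioxygenase, at 48.7%, while LOC100505761, C18orf56, ZNF581 and YDJC were left at between 45.2% and 50.4%. SORBS3, an adhesion adaptor, was the member highest at 2 µM CBP30 (0.30), with 14.6 and 12.5 FPKM against 11.2 and 10.4 with DMSO, and yet had 5.50 and 5.55 FPKM at 5 µM.

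The thresholds cut through a continuous range. Just inside the fall were INO80B-WBP1 (−0.803), RPP21 (−0.801) and TIMM9 (−0.8001), and just outside it were CTU2 (−0.79995), POLRMT (−0.799), CLPP (−0.799) and OGFOD2 (−0.797). Just inside the limit of 0.3 were CLN6 and ACY1 (both −0.299 with 2 µM CBP30), SORBS3 (0.298 with 2 µM CBP30) and RHBDD3 (−0.297 with 5 µM I-CBP112). Just outside it were ECE2 (−0.301) and C1orf31 (−0.302) with 5 µM I-CBP112, and PES1 (−0.304) and CDKN1C (−0.307) with 2 µM CBP30. The genes outside the set whose profile over the 10 samples was most like its mean were DAK (r = 0.996), EIF3M (r = 0.992) and YARS (r = 0.992), with differences of −0.61, −0.64 and −0.50 at 5 µM CBP30, too small for the rule. These correlations describe samples of the same 5 conditions.

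The fall was also read in libraries that the choice had not used, DMSO included. Chosen on replicate 2 of every group, 56 genes met the rule, and between the replicate 1 libraries of 5 µM CBP30 and DMSO their median difference was −0.82, with a fall of at least 0.8 in 32 of them (5.85% of genes with the DMSO level). Chosen on replicate 1 of every group, the rule gave 94 genes, whose median between the replicate 2 libraries was −0.91 and of which 66 had that fall (5.38%). The same reading for 2 µM CBP30 turned on the library. The 94 genes had a median of −0.33 in replicate 2 at 2 µM CBP30 and 52 of them lay more than 0.3 below DMSO (15% of genes with the DMSO level), while 42 stayed within 0.3 (74.1%). The 56 genes had a median of 0.03 in replicate 1, where 6 lay more than 0.3 below (23.8%) and 44 stayed within 0.3 (54.8%).

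Features that the rule did not read are given as a description, without a test. Their canonical transcripts (GENCODE, GRCh37) had a median length of 1556 bases and a GC content of 59.9%, against 3213 bases and 48.0% for genes with the DMSO level, and 2561 bases and 55.6% for the other genes with the fall. The shortest of the 5 length classes held 49 of the 89 genes (55.1%) and the longest class 4. Length moved with the readout in the libraries themselves: the shortest class had a median difference of −0.15 and the longest of 0.11 with 5 µM CBP30, and replicate 1 of 2 µM CBP30 had the opposite trend. With the trend with length removed from each library, the median of the 89 genes was −0.81 with 5 µM CBP30, and 45 of them kept a fall of at least 0.8. With 2 µM CBP30 their median was −0.21, where that of all genes in this setting was −0.006, and 27 of the 89 lay more than 0.3 below DMSO. The rule then gave 46 genes, 30 of them among the 89. With the GC trend removed as well, a setting added after the data were seen, the medians were −0.75 and −0.27, and 35 of the 89 kept a fall of at least 0.8 with 5 µM CBP30. The part of length and GC content in the choice of these genes was not tested beyond these values.

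Long noncoding RNAs made up 14 of the 89 genes (15.7%), against 2.83% of genes with the DMSO level. Chromosome 22 held 8 of the 89 (8.99%, against 2.58%) and chromosome 19 held 10 (11.2%, against 7.18%). Among members less than 100 kb apart, GP1BB (chr22:19711062-19712294, GRCh37) and TBX1 (chr22:19744226-19771116) were separated by 31.9 kb, RRP9 and ACY1 on chromosome 3 by 41.4 kb, and LOC731779 and PTP4A3 on chromosome 8 by 47.4 kb. Of the 89 genes, 22 overlap another gene on the same strand and 48 one on the opposite strand, and whether the counting used the strand was not given in the sources used here. Of the genes named here, INO80B-WBP1, PAM16, RPP21, ACY1, AARSD1, DBNDD2, GP1BB, SNHG3, PYCR1, ASNS, RPUSD4, PUS1, SORBS3, TBL3, TRAP1, CLN6, ZNF581 and C18orf56 overlap another gene on the same strand. Of those given sample by sample, ATF5, EPB41L4A-AS1, NOB1, EXOSC5, GAS5 and STAT5A have a gene on the other strand. The values of these genes are therefore less certain.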

How the data were processed

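RNA of K562 cells was sequenced as single reads of 50 bases, with 2 biological replicates for each of 5 conditions. Reads were run by the authors through Nextpresso on hg19 (GRCh37), and the submitters' processing notes name TopHat2 2.0.10, Bowtie 1.0.0, SAMtools 0.1.19, Cufflinks 2.2.1 and Cuffnorm. The gene annotation was not given in the sources used here. The deposited table holds FPKM per gene and sample, scaled by the authors by transcript length and library, with replicates not pooled. Every column was matched to its sample by name. Low FPKM values fell on steps, and the most frequent ratio of these to DMSO replicate 1 was between 0.856 and 0.983, in bins of 0.05 on the log2 scale. That bin held 55 of 2257 genes in replicate 2 of 5 µM CBP30 and 183 of 2212 in replicate 1 of 2 µM CBP30. The ratio is thus only a rough guide to relative depth. Absolute depth is unknown and precision rests on 2 samples a group.

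Values were analysed as log2(FPKM + 1). One limma 3.58.1 fit (R 4.3.3, eBayes with trend) of all 5 groups, with a mean of at least 0.5 FPKM (12788 genes), gave calls at a Benjamini-Hochberg adjusted p under 0.05, read only as background for the chosen genes. On simulated data with 200 genes of 12788 lowered by 0.8 it called 164 of them and 8 others. The simulation used independent normal noise, with the same spread per gene in all groups and no length trend. It therefore checks the procedure and does not give the error of the calls in the real libraries. Length and GC content came from GENCODE canonical transcripts of GRCh37 (22363 genes matched, all 89 chosen ones, 13 of them by an older symbol), and trends were removed by lowess (span 0.3, statsmodels 0.14.6). Python 3.11.15 (pandas 2.3.3, matplotlib 3.10.9) was used for tables and plots.

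The genes and lists were chosen with earlier results of these data known, and the roles were assigned after the values were seen. Of 14 gene lists 11 held no chosen gene. The genes named are the 30 with the largest fall and others on a list or of known role, up to 60, those at the thresholds, and the 3 most like the set's mean. Genes named for another reason, such as ATF4, ATF3, DDIT4, PHGDH, SLC7A11, VLDLR, CDKN1A, SNHG4 and SNHG12, were picked from lists after their values were seen. Alternatives were a pseudocount of 0.1, other filters, median centring, quantile normalization, removal of trends, other thresholds, a replicate block and leaving out each library. Some genes that this rule covers are not reported here.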

Additional observations from a re-analysis of the deposited data

How the results depend on the processing

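The number of genes meeting the rule (89) depended on settings near its thresholds. It was 46 with the length trend removed, 38 with the length and GC trends removed, 312 and 22 with a fall of at least 0.6 and 1, 41 and 161 with the other treatments within 0.2 and 0.4, and 56 without replicate 1 of every group, the last and the GC setting added after the data were seen. Leaving out 1 library at a time gave between 47 and 116, the lowest without replicate 1 of 2 µM CBP30. It stayed within 1.5 times of 89 with a pseudocount of 0.1 (122), median centring (102) and quantile normalization (70), which shared 79, 87 and 54 of the 89. The median difference with 5 µM CBP30 (−0.88) was −0.96 with a pseudocount of 0.1, −0.86 with quantile normalization, −0.81 with the length trend removed and −0.75 with length and GC removed, and between −0.93 and −0.88 without 1 library. For the 59 genes that had one of the 30 largest falls or an assigned role, the value stayed below DMSO in all 531 combinations with 9 settings, which the required fall of 0.8 made likely. The causes of these shifts were not tested. limma called 3245 genes lower in the main analysis and between 2235 and 4279 without 1 library, and between 82 and 89 of the 89.

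No pairing by replicate number was seen in the values: same-numbered deviations of 10 pairs of groups correlated between −0.07 and 0.09. The sample labels do not say whether same-numbered samples were handled together. Adding a replicate block to the fit, 3131 genes were called lower, with all 89 among them, and 3407 and 88 with that block after removal of the length trend.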
